A study of Mus musculus with 24 samples.

Results

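The DNA replication and S-phase genes are a list of 42 genes whose products license replication origins, unwind and copy DNA, supply deoxynucleotides, drive entry into S phase, and rebuild chromatin or guard the fork behind the copied strand. Members were found through the gene name of the non-control probes of a mouse expression array, or through the current symbol of a probe's RefSeq accession, with older names such as Cdc45l and Orc1l counted. All 42 had a probe (58 probes in all), and 41 gave signal well above background on 4 arrays or more, of 24, and were kept. They stood among 19037 genes tested. Orc1, the largest subunit of the origin recognition complex, was above background on 1 array, a treated double knockout female, and was not tested. The rule that finds the probes of members uses no measured value, but the list was chosen with earlier results of these data known.

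RNA of mouse liver was measured on 24 single-colour arrays, 4 in each of 6 groups. Female livers were untreated or treated, male livers were all treated, and each of these 3 settings held wild-type (WT) mice and mice labelled as double knockout (dKO) for the forkhead factors Foxa1 and Foxa2, which open chromatin at liver genes. Treated mice had received DEN (diethylnitrosamine, a carcinogen), 20 mg/kg, when 14 to 15 days old, and then the CAR agonist and liver mitogen TCPOBOP (3 mg/kg) every 2 weeks, 8 times. The series title places the comparisons in the question of how sex differences in liver cancer depend on Foxa1 and Foxa2. The tissue label reads liver tumour for all 24 samples, untreated ones included. Untreated males were not analysed here, and how the genes were deleted, and the age at collection, are not stated in these sources. No label ties a replicate to an animal of its own, so p-values measure only the spread between these samples, which may be technical.

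A replication origin is licensed in G1, when the origin recognition complex, Cdc6 and Cdt1 load the MCM helicase onto DNA in an inactive form. As S phase begins, Cdc45 and the GINS complex join MCM, with the help of Mcm10, to make the active helicase, primase and the polymerases follow, and the PCNA clamp holds the polymerases on the strand. Most of these genes are transcribed at the passage from G1 to S by E2F factors, which the retinoblastoma proteins restrain. Adult hepatocytes are mostly quiescent, and re-enter the cycle after tissue loss, after mitogens such as TCPOBOP, and in tumours.

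Levels below are log2 signals relative to each array's 75th percentile, so that a level of 0 lies at that percentile, and they are comparable between arrays for one gene and not between genes. The share of spots well above background was 50.4% on the lowest and 68.4% on the highest array, no spot was saturated, and the number of arrays limits the precision. Foxa1 was above background on every WT array and on no dKO array, and Foxa2 was lower in dKO, with differences of -8.44 ± 0.77 before treatment, and after it of -10.07 ± 0.77 in females and -7.99 ± 0.77 in males (log2 fold change ± SE), so both genes ran with the labels. All 9 hepatocyte markers measured, Alb and Hnf4a among them, were above background on every array of every group. Their summed linear level, in units of the array's 75th percentile, ran from 619 to 1376 over the treated dKO females, and from 1280 to 1909 elsewhere. In these bulk samples fewer cells of a type and less RNA per cell cannot be told apart. The 4 treated dKO females all lay at position 4 of their slides and the 4 treated WT males at position 1, and no treated dKO array shared a position with a treated WT array of its sex. Position on the slide and genotype therefore cannot be told apart among treated mice.

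Averaged over the 41 members, the level per array was -1.08, -0.56, -0.60 and -0.75 in untreated WT females and -0.91, -0.66, -0.80 and -0.85 in untreated dKO females. It was -1.08, -1.14, -0.94 and -1.06 in treated WT females and -0.34, 0.47, -0.82 and -0.02 in treated dKO females. In males it was -0.43, -0.53, -0.50 and -0.48 in treated WT and -0.98, -1.11, -0.76 and -0.86 in treated dKO. All 4 treated dKO females thus lay above all 4 treated WT females, whereas all 4 treated dKO males lay below all 4 treated WT males, and the 2 untreated groups overlapped. The spread was widest in treated dKO females, with a median SD over members of 0.58 against 0.16 to 0.28 in the other groups (0.31 over all genes in the same arrays).

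**Figure D1:**
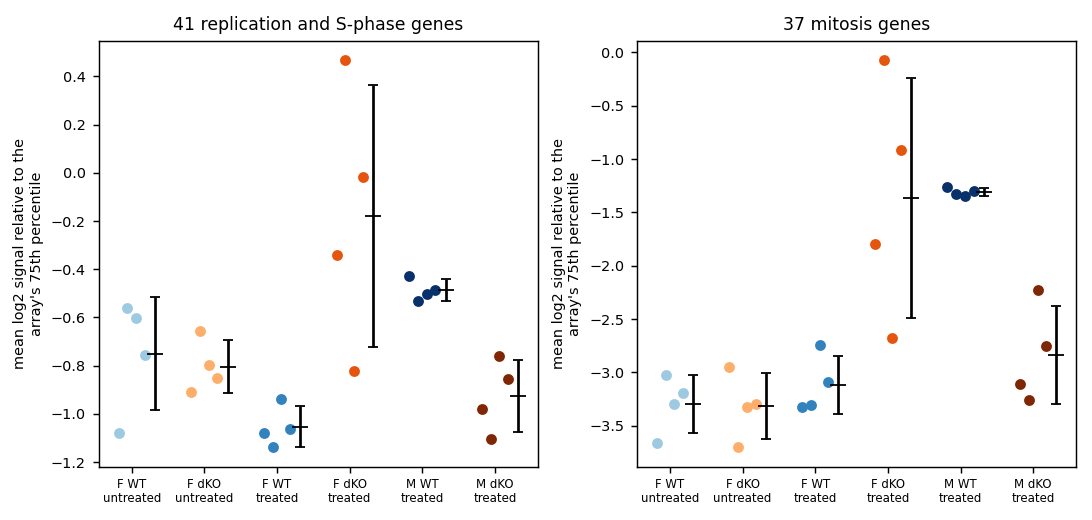
Mean log2 signal relative to the array's 75th percentile over the replication genes and, beside them, over mitosis genes, on each of 24 arrays (points, 4 per group), with the group mean and SD as a cross line and bar. Treated dKO females run from -0.82 to 0.47 for the replication genes, above treated WT females at -1.14 to -0.94, and treated dKO males at -1.11 to -0.76 lie below treated WT males at -0.53 to -0.43.

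In treated females the replication genes were higher in dKO than in WT liver across nearly every step of the process. Of 41 members 32 were higher and 2 lower by limma's moderated test at a Benjamini-Hochberg adjusted p under 0.05, and 16 of the 32 differed by 2-fold or more (7.44% of all genes were higher by as much). Over all genes tested 29.9% were called, 13.6% higher and 16.3% lower. No overlap between groups was seen for 23 members (21.6% of all genes). The median log2 fold change over members was 0.92, against -0.07 over all genes. Fold changes below are dKO minus WT on the log2 scale with the standard error of that fit, n = 4 arrays per group. That fit shares a single spread per gene over all 6 groups. The SE can thus be too small where treated dKO females, whose spread was widest, are compared.

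All 9 tested licensing and helicase genes were higher. The MCM genes encode the 6 subunits of the replicative helicase. Mcm6 was at 0.77, -0.0085, 0.52 and 0.44 in the 4 treated WT females and at 2.89, 3.80, 1.57 and 3.06 in the 4 treated dKO females. Every dKO array lay above every WT array, and the difference was 2.40 ± 0.40, adjusted p = 0.000211. Mcm5, another subunit, was at -2.13, -2.06, -1.55 and -1.92 in WT and at 0.02, 1.18, -1.31 and 0.44 in dKO. Its groups did not overlap either, although replicate 3 of the dKO females lay close to the WT arrays (1.99 ± 0.39, adjusted p = 0.000884). Mcm2 (1.47 ± 0.28), Mcm3 (1.08 ± 0.34), Mcm4 (0.94 ± 0.18) and Mcm7 (0.92 ± 0.14) completed the ring, with adjusted p of 0.000679, 0.0217, 0.000875 and 7.36e-05. Cdc6, the ATPase that helps to load the ring, was at -5.91, -5.33, -4.58 and -6.33 in WT, above background on 1 of 4 arrays, and at -3.95, -2.51, -5.31 and -2.99 in dKO, above background on all 4. Replicate 3 of the dKO females fell inside the WT range, and the difference was 1.85 ± 0.49, adjusted p = 0.00844. The loading factor Cdt1 (0.91 ± 0.24, adjusted p = 0.00732) and Orc6, a subunit of the origin recognition complex (0.31 ± 0.10, adjusted p = 0.0221), were higher by less.

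Because E2F factors act through short promoter motifs, the 250 bases before the transcription start were searched for 4 forms of the E2F site, TTTCCCGC, TTTGGCGC, TTTCGCGC and TTTGCCGC, on both strands, in RefSeq promoters of GRCm38.p6. Of the 42 members 35 had a promoter in that table, and 9 of the 35 (25.7%) held a match, against 2.16% of all 27025 genes. A match was held by 7 of 27 members higher in treated dKO females (25.9%) and by 1 of 7 other tested members (14.3%), too few to compare, and by Orc1, which was not tested. The CCAAT box was found in 62.9% of members and 37.5% of all genes. The cell cycle homology region, searched as TTTGAA or TTCGAA, was found in 22.9% and 19.6%. A match is a description of letters and no evidence of binding. The stretches below hold the matches, in capitals, of members from several steps, on the strand of the gene with the matches flanked by up to 20 bases. They lie at chr8:75109336-75109387 (Mcm5, plus strand), chr1:128359725-128359835 (Mcm6, minus), chr5:138172021-138172068 (Mcm7, minus), chr11:98907993-98908040 (Cdc6, plus), chr17:56304108-56304155 (Uhrf1, plus) and chrX:93632266-93632313 (Pola1, minus). Mcm5 holds 2 overlapping matches and Mcm6 holds 3, and Pola1 is shown as a member with a match that was not called.
Mcm5: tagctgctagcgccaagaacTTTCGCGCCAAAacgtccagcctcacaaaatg
Mcm6: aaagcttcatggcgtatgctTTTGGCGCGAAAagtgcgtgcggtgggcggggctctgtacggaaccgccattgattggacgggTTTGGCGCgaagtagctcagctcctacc
Mcm7: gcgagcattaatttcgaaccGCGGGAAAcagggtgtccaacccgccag
Cdc6: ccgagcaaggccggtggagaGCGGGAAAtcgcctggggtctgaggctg
Uhrf1: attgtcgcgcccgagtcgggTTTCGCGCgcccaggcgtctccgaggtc
Pola1: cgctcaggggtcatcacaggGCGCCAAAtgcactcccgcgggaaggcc

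The genes that activate the helicase were split. Gins2, a GINS subunit, was at -3.22, -3.14, -2.78 and -3.24 in treated WT and -1.53, -0.01, -2.60 and -0.87 in treated dKO females, without overlap (1.84 ± 0.35, adjusted p = 0.000756). Cdc45 was also higher (1.31 ± 0.30, adjusted p = 0.00320), but its sign turned to -0.23 with normexp background, where it was not called. Gins1, the partner of Gins2, differed by 0.13 ± 0.10, adjusted p = 0.348 and was not called. Mcm10 went the other way. It was at 3.89, 3.99, 3.57 and 3.76 in WT and at 1.95, 0.80, 3.28 and 2.07 in dKO females, every dKO array below every WT array (-1.78 ± 0.36, adjusted p = 0.00123). Among the dKO females its order was the reverse of that of most members, lowest on replicate 2 and highest on replicate 3. One probe represents Mcm10 on the array, at chr2:4911845-4911904 of mm9.

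At the fork, Pold1 and Pole, the catalytic subunits of polymerases delta and epsilon, were higher by 0.73 ± 0.13 (adjusted p = 0.000434) and 0.96 ± 0.29 (adjusted p = 0.0173). Prim1, the catalytic primase subunit, was higher by 0.65 ± 0.21 (adjusted p = 0.0243). Its partner Prim2 (0.02 ± 0.14) and the polymerase alpha subunit Pola1 (0.09 ± 0.18) were not called, with adjusted p of 0.919 and 0.749. Lig1, the ligase that seals Okazaki fragments, was at 0.83, 0.87, 1.02 and 0.93 in WT and 1.85, 2.49, 1.39 and 2.11 in dKO females, without overlap (1.05 ± 0.17, adjusted p = 0.000149). Fen1, the nuclease that trims their flaps, was higher by 0.95 ± 0.19 (adjusted p = 0.00125). The clamp Pcna was higher by only 0.32 ± 0.11 (adjusted p = 0.0339), with overlapping groups. Of the clamp loader, Rfc4 (0.50 ± 0.13) and Rfc3 (0.36 ± 0.12) were higher and Rfc5 (-0.01 ± 0.10) was not called. Rpa2, a subunit of the single-strand binding protein RPA, was higher by 0.65 ± 0.12 (adjusted p = 0.000419).

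Nucleotide supply held the largest fitted difference and 1 of the 2 members that were lower. Rrm2, the regulatory subunit of ribonucleotide reductase that is made in S phase, was at -3.22, -3.81, -2.99 and -3.14 in treated WT and -1.75, 0.97, -2.63 and -0.12 in treated dKO females. The dKO arrays spanned 3.60 log2 units and all lay above the WT arrays (2.41 ± 0.50, adjusted p = 0.00148). Rrm1, the catalytic subunit, differed by 0.78 ± 0.15 (adjusted p = 0.000621). Tyms, thymidylate synthase, differed by 0.28 ± 0.10 (adjusted p = 0.0459). Tk1, the thymidine kinase of the salvage pathway, was lower, at 3.10, 3.38, 2.56 and 3.09 in WT and 1.99, 1.49, 2.28 and 1.73 in dKO females. Every dKO array lay below every WT array (-1.16 ± 0.21, adjusted p = 0.000420), and 1 probe represents the gene.

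Of the S-phase cyclins and E2F genes, Ccne1, cyclin E1, was at -0.82, -0.61, -0.33 and -0.63 in WT and 0.82, 2.76, 0.46 and 1.81 in dKO females, without overlap (2.06 ± 0.36, adjusted p = 0.000357). Ccne2 (1.10 ± 0.38, adjusted p = 0.0331) was above background on 1 of 4 WT arrays and turned to -0.56, not called, with normexp background. E2f1, the activator, was at -2.67, -2.85, -2.73 and -2.83 in WT and -2.02, -0.76, -2.89 and -1.51 in dKO females. Replicate 3 lay just below the WT range and the other 3 above it (0.97 ± 0.29, adjusted p = 0.0148). E2f2 (-0.10 ± 0.29) and E2f8, a repressor (-0.09 ± 0.36), were not called.

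Uhrf1, which brings the maintenance methyltransferase to newly copied DNA, was at -3.23, -3.51, -2.16 and -2.91 in WT and -0.76, 0.60, -1.98 and -0.26 in dKO females, without overlap (2.35 ± 0.42, adjusted p = 0.000404), and its dimmer probe gave 2.40. The methyltransferase itself, Dnmt1, differed by 0.67 ± 0.18 (adjusted p = 0.00883). Chromatin assembly factor was split, with Chaf1a higher by 1.65 ± 0.36 (adjusted p = 0.00241) and Chaf1b at -0.30 ± 0.23 (adjusted p = 0.355). The repair genes Brca1 (1.51 ± 0.26) and Exo1 (1.78 ± 0.53) were higher, with adjusted p of 0.000317 and 0.0162. Chek1, the checkpoint kinase that restrains damaged forks, was not above background on any treated WT female array and was at least 2.02-fold higher in dKO (adjusted p = 0.00400). With normexp background its difference was -0.13 and not called.

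**Figure D2:**
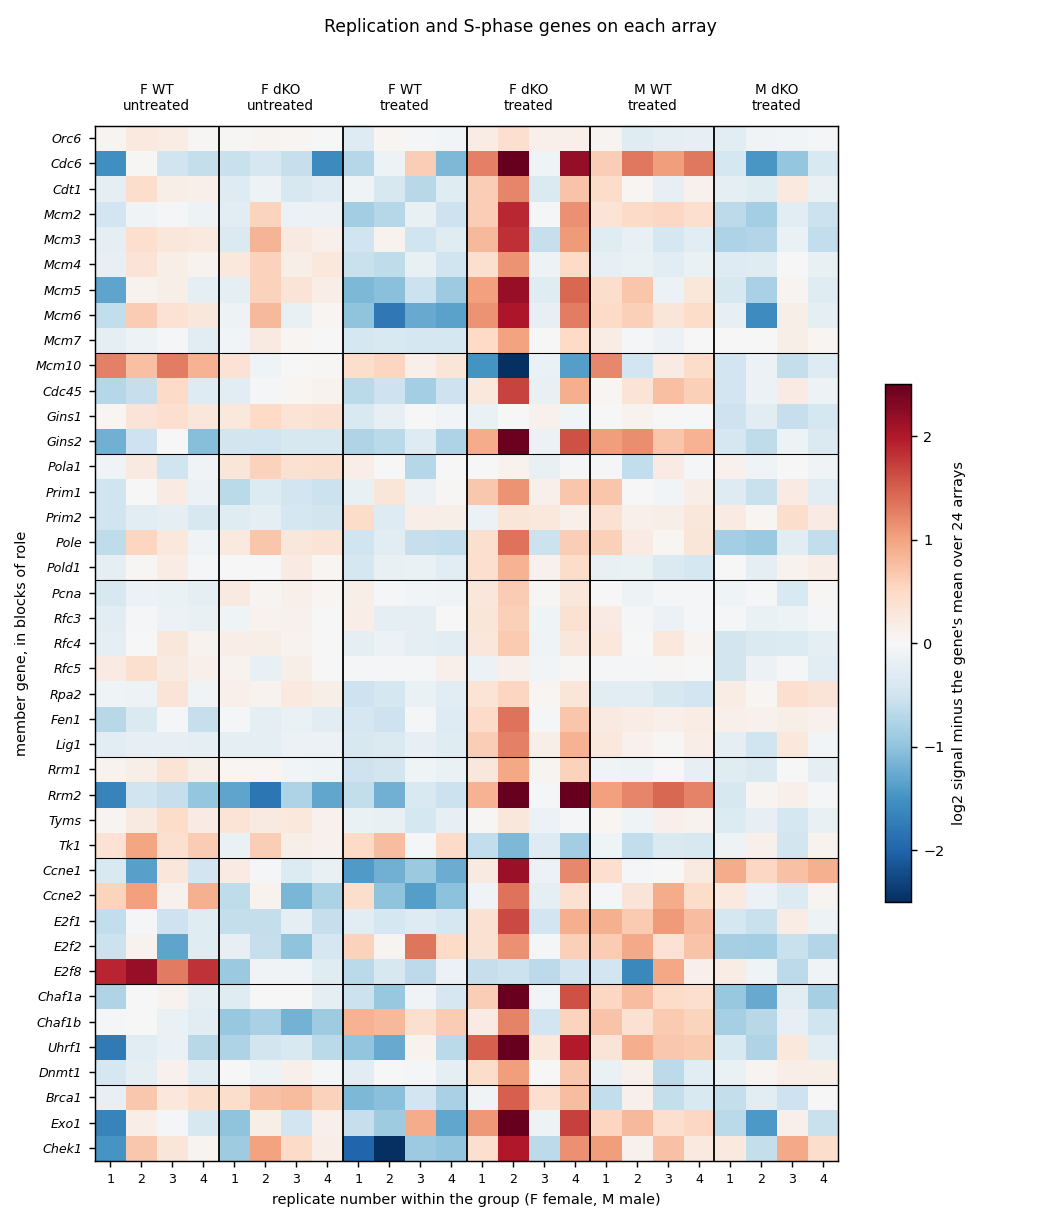
Log2 signal of 41 members on each of 24 arrays minus the gene's own mean over the arrays, with genes in blocks of role and arrays in blocks of group (columns are replicates 1 to 4). Replicates 2 and 4 of the treated dKO females are the warmest columns, replicate 3 of that group is close to the treated WT females, and Mcm10 and Tk1 run opposite to their neighbours there.

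The 4 treated dKO females were not alike. Replicate 2 held the highest value of its group for 37 of 41 members and replicate 3 the lowest for 35. Bile duct markers, 8 genes such as Krt19 and Epcam, had a summed level of 152, 251, 76.1 and 185 on replicates 1 to 4, against 9.56 to 22.6 in treated WT females. The hepatocyte sum was 1176, 619, 1376 and 932 on the same arrays. Markers of stellate cells and fibroblasts summed to 147, 195, 118 and 149, against 59.6 to 81.2 in treated WT females. Against treated WT females 7 of 8 bile duct and 7 of 9 stellate cell and fibroblast genes were called higher and 4 of 9 hepatocyte genes lower. The replicate with the highest replication levels thus had the most bile duct and the least hepatocyte signal, and replicate 3 the reverse. The slope of the spike-in controls was 0.953, 0.923, 0.985 and 0.946 on those arrays and 0.955 to 1.03 on the arrays of the other groups. The lowest of the latter, 0.955, was treated dKO male replicate 3, which held the highest value of its group for 26 of 41 members. The part of cell makeup or array response in the member differences was not tested. In treated dKO males the bile duct sum was 63.9 to 81.5, close to that of replicate 3, with replication levels below those of WT males.

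Without replicates 2 and 4 of the treated dKO females, an alternative added after the data were seen, 15 members were higher and 3 lower, with a median of 0.50, and with normexp background the median was 0.52. A fit of only the 2 groups called 10 higher and 2 lower, and with array position as a covariate 0 of 41 were called, where position and genotype cannot be told apart. The 2 slides that held both groups carried dKO replicates 2 and 4, and the median over members there was 1.39 and 0.94. Replicates 1 and 3 of the treated dKO females shared no slide with a treated WT female. With any one array left out, between 25 and 34 members were called. In every alternative that tested the gene, except array position and the fit of only the 2 groups, 17 of the 34 calls were kept. They were Brca1, Ccne1, Fen1, Gins2, Lig1, Mcm2, Mcm4, Mcm5, Mcm6, Mcm7, Mcm10, Pold1, Rpa2, Rrm1, Rrm2, Tk1 and Uhrf1. Rrm2 was not tested with the filter that asks for signal above background on every array.

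In treated males the same genotype contrast ran the other way for part of the list. Of 41 members 11 were lower and 1 higher in dKO than in WT liver, where 25.3% of all genes were called (14.5% higher, 10.8% lower). Group ranges stood apart for 18 members (28.6% of all genes), and the median was -0.27 against 0.05 over all genes. The members that were lower came from licensing (Mcm2, Cdc6), the GINS complex (Gins1, Gins2), the fork (Pole, Rfc4), nucleotide supply (Tyms), E2F (E2f1, E2f2) and chromatin assembly (Chaf1a, Chaf1b).

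Mcm2 was at -0.85, -0.73, -0.69 and -0.78 in treated WT and -1.85, -2.05, -1.50 and -1.75 in treated dKO males, without overlap (-1.03 ± 0.28, adjusted p = 0.00969). Cdc6 was above background on 3 of 4 WT arrays, at -4.59, -3.88, -4.15 and -3.89, and on no dKO array, and was at least 2.14-fold lower in dKO (adjusted p = 0.00762). Its second probe, above background on 7 of 24 arrays, gave only -0.43, which is less than that bound, so the size of the Cdc6 difference is uncertain. Gins2 was at -1.41, -1.30, -1.76 and -1.58 in WT and -2.89, -3.10, -2.60 and -2.82 in dKO males (-1.34 ± 0.35, adjusted p = 0.00828). Every dKO array of these genes lay below every WT array. E2f1 was at -1.53, -1.75, -1.34 and -1.63 in WT and -2.84, -2.97, -2.23 and -2.54 in dKO males (-1.08 ± 0.29, adjusted p = 0.00823). E2f2, a second E2F activator, was at -0.10, 0.20, -0.38 and -0.03 in WT and -1.57, -1.58, -1.30 and -1.47 in dKO males (-1.40 ± 0.29, adjusted p = 0.00107). For both E2F genes the groups stood apart. Chaf1a was lower, at -1.37 ± 0.36 (adjusted p = 0.00842) and so was Chaf1b, at -1.14 ± 0.23 (adjusted p = 0.00119), so that here the 2 large subunits of chromatin assembly factor went together. Pole (-0.95 ± 0.29), Rfc4 (-0.50 ± 0.13), Gins1 (-0.47 ± 0.10) and Tyms (-0.33 ± 0.10) had adjusted p of 0.0196, 0.00629, 0.00147 and 0.0238. The brighter Tyms probes, above background on all 24 arrays, gave -0.33 and -0.30 here. The dimmest, above background on 10 arrays, gave 1.21. The mean of all 3 probes gave 0.19, which was not called here. For sex in dKO that mean gave 0.47, called in the opposite direction (adjusted p = 0.0388).

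Rpa2 was the one member called higher in dKO males, and the one called higher in dKO of both sexes. It was at -0.68, -0.66, -0.79 and -0.88 in WT and -0.21, -0.35, 0.02 and -0.07 in dKO males, and at -0.91, -0.84, -0.55 and -0.68 and -0.06, 0.14, -0.34 and -0.10 in WT and dKO females. The groups stood apart in both sexes, with a difference of 0.60 ± 0.12 in males (adjusted p = 0.000786) and a sex by genotype term of -0.06 ± 0.17 (adjusted p = 0.856). Its second probe gave 0.36 in males. The whole RPA complex did not follow it, since Rpa1 and Rpa3, outside the list, were lower in dKO males, at -0.83 ± 0.10 and -0.78 ± 0.10 (adjusted p = 6.22e-06 and 5.92e-06).

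Several members without a call in males were also below WT on all arrays. Mcm6 was at 2.25, 2.36, 2.08 and 2.23 in WT and 1.58, 0.20, 1.93 and 1.55 in dKO males, with replicate 2 of the dKO group far below the other 3 (-0.92 ± 0.40, adjusted p = 0.0990). Rrm2 was at -1.58, -1.38, -1.17 and -1.36 and -3.00, -2.54, -2.48 and -2.66 (-1.30 ± 0.50, adjusted p = 0.0628), and Uhrf1 at -1.92, -1.33, -1.56 and -1.58 and -2.63, -3.00, -1.98 and -2.51 (-0.93 ± 0.42, adjusted p = 0.112). Of the other MCM genes not called, Mcm5 was at -0.68 ± 0.39, Mcm3 at -0.27 ± 0.34, Mcm4 at 0.0006 ± 0.18 and Mcm7 at 0.03 ± 0.14, with overlapping groups. Mcm10 was at -0.74 ± 0.36, also not called (adjusted p = 0.144). Bile duct markers were higher in dKO males for 8 of 8 genes, with sums of 63.9 to 81.5 against 10.1 to 20.7 in WT. Stellate cell and fibroblast markers were higher for 4 of 9 (122 to 137 against 34.2 to 79.2), and no hepatocyte marker was called in either direction. Their part in the member differences was not tested. On the 3 slides that held both groups the member median was -0.22, -0.46 and -0.37. It was -0.40 without dKO replicate 3 and -0.41 with array median centring. With array position as a covariate 0 of 41 were called, and Chaf1a, Chaf1b, E2f1, E2f2, Gins1, Gins2, Mcm2, Rfc4 and Rpa2 kept their call in every alternative but that and the fit of only the 2 groups.

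**Figure D3:**
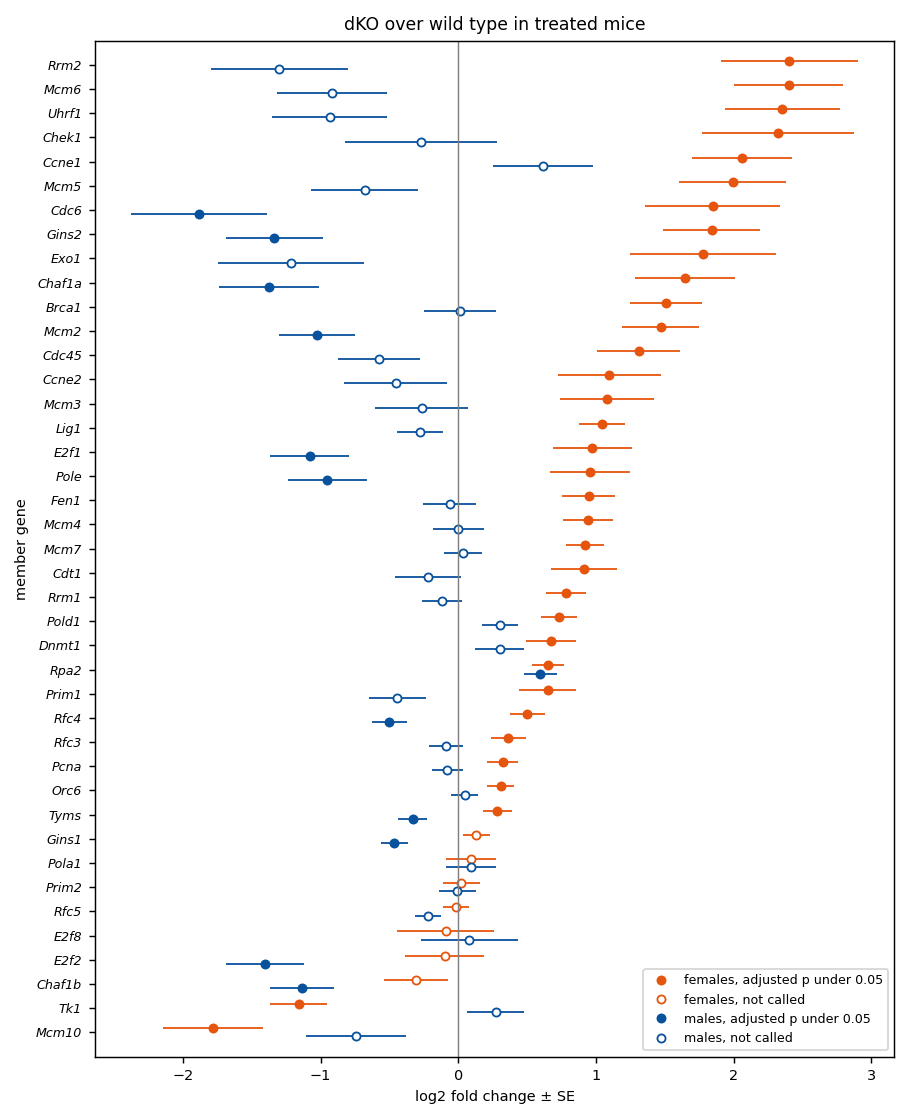
Log2 fold change of dKO over WT with its SE for each of 41 members in treated females and treated males, from the fit of 24 arrays (filled points, adjusted p under 0.05; open points, not called). In females 32 members are called to the right of 0 and 2 to the left (Mcm10 and Tk1), and in males 1 to the right (Rpa2) and 11 to the left.

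The difference between the sexes was tested by the interaction term, the genotype effect in males minus that in females. It was called for 26 of 41 members, 25 of them lower and 1 higher, where 12.5% of all genes were called (7.23% higher, 5.25% lower). The median over members was -1.09 against 0.11 over all genes. The terms were -3.32 ± 0.56 for Mcm6, -3.70 ± 0.71 for Rrm2, -3.29 ± 0.59 for Uhrf1, -3.18 ± 0.50 for Gins2 and -3.02 ± 0.51 for Chaf1a (largest adjusted p of these 0.00276). The exception was Tk1, with 1.43 ± 0.29, adjusted p = 0.00458, lower in dKO females and at 0.27 ± 0.21 in dKO males. By role, the term was called for 7 of 9 licensing genes, 3 of 4 of helicase activation, 2 of 5 polymerases and primase, 3 of 7 of clamp, loader, RPA and Okazaki genes, 4 of 4 of nucleotide supply (3 lower and Tk1 higher), 2 of 5 cyclin E and E2F genes, 2 of 4 chromatin genes and 3 of 3 repair and checkpoint genes, and no difference between roles was tested. Of these calls 14 held in every alternative that tested the gene. They were Chaf1a, E2f1, Gins1, Gins2, Lig1, Mcm2, Mcm5, Mcm6, Mcm7, Pole, Rfc4, Rrm2, Tk1 and Uhrf1. Rrm2 was not tested with the filter that asks for signal above background on every array. Array position as a covariate says little about this term, since position differed between dKO and WT in the same direction in both sexes. Without replicates 2 and 4 of the treated dKO females 16 members were called, with a median of -0.68.

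Both genotype contrasts are 4 arrays against 4, and 8 members were called in opposite directions, higher in dKO females and lower in dKO males, as were 0.904% of all genes: Cdc6, Chaf1a, E2f1, Gins2, Mcm2, Pole, Rfc4 and Tyms. A further 23 were called higher in females alone (7.04% of all genes), 3 lower in males alone (Chaf1b, E2f2 and Gins1; 5.65%), 2 lower in females alone (11.6%), and 4 in neither sex (E2f8, Pola1, Prim2 and Rfc5; 56.1%). Of the 23, Ccne1 was positive in both sexes, at 2.06 ± 0.36 in females and 0.61 ± 0.36 in males (adjusted p = 0.236 in males). Its interaction term was -1.45 ± 0.51 (adjusted p = 0.0688).

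**Figure D4:**
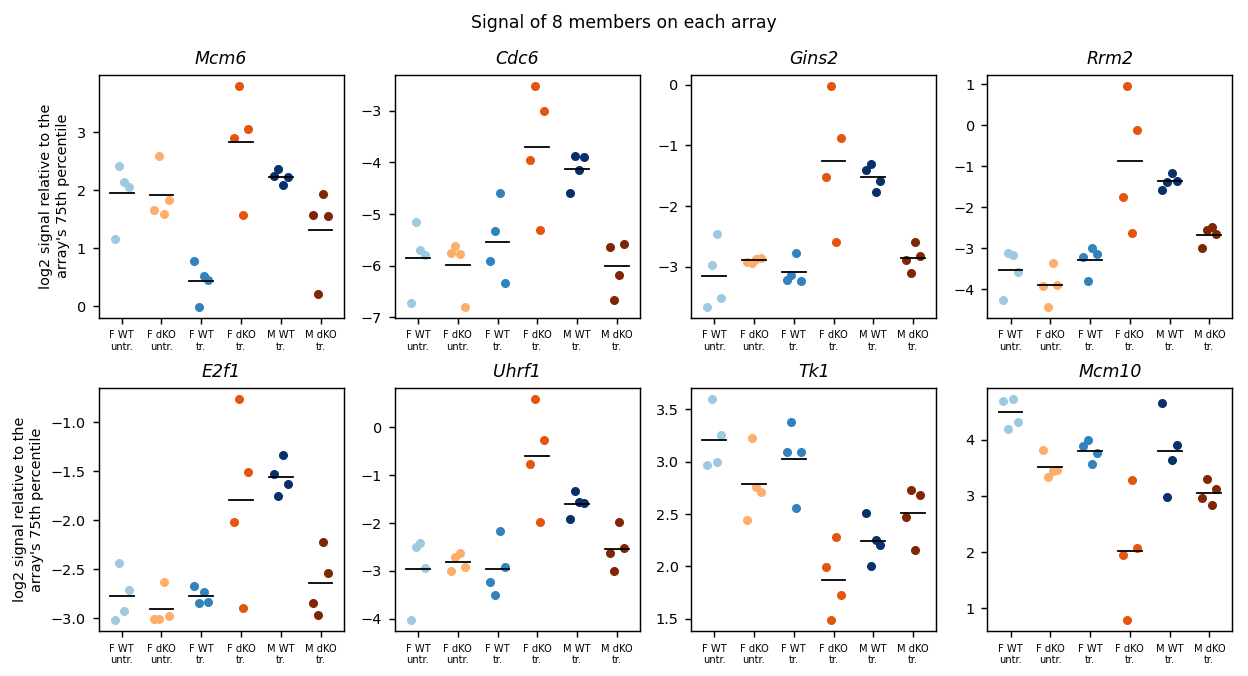
Log2 signal relative to the array's 75th percentile of 8 members on each array (points, 4 per group; the line is the group mean) in the 6 groups. Mcm6, Cdc6, Gins2, Rrm2, E2f1 and Uhrf1 have higher means in treated dKO than in treated WT females and lower means in treated dKO than in treated WT males, and the means of Tk1 and Mcm10 are lowest in treated dKO females.

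Between the sexes, treated WT males had more signal than treated WT females for a small set of members. Of 41 members 8 were higher and 1 lower in males, where 6.17% of all genes were called (3.29% higher, 2.87% lower). The groups did not overlap for 18 (14.5% of all genes), and the median was 0.37 against -0.03. Mcm6 was at 0.77, -0.0085, 0.52 and 0.44 in females and 2.25, 2.36, 2.08 and 2.23 in males (1.80 ± 0.40, adjusted p = 0.00902). Gins2 was at -3.22, -3.14, -2.78 and -3.24 and -1.41, -1.30, -1.76 and -1.58 (1.58 ± 0.35, adjusted p = 0.00981), and Rrm2 at -3.22, -3.81, -2.99 and -3.14 and -1.58, -1.38, -1.17 and -1.36 (1.92 ± 0.50, adjusted p = 0.0248). None of these pairs of groups overlapped. Ccne1 (1.35 ± 0.36), E2f1 (1.21 ± 0.29), Mcm2 (1.02 ± 0.28) and Cdc45 (1.08 ± 0.30) were also higher in males, with adjusted p of 0.0287, 0.0141, 0.0328 and 0.0356. Chek1 was at least 1.76-fold higher in males (adjusted p = 0.0241), and Tk1 was lower (-0.79 ± 0.21, adjusted p = 0.0256).

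This count was unsteady. It fell from 9 to 3 or 4 without replicate 1, 2 or 4 of the treated WT females or without replicate 3 or 4 of the treated WT males, and to 1 with normexp background, where Cdc45 turned to -0.00377. A fit of only these 2 groups, whose spread is small, called 15 higher and 0 lower. Mcm6 alone kept its call in every alternative. At array position 1, which held 4 males and 2 females, the median was 0.39, with 33 members positive, and on the 2 slides with both groups it was 0.42 and 0.29. B and plasma cell markers were lower in males for 3 of 6 genes tested (sums of 5.38 to 12.8 against 7.85 to 12.6) and T and NK cell markers for 2 of 8 (0.633 to 1.17 against 0.839 to 2.14), with overlapping sums, and their part was not tested.

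In treated dKO mice the sex difference ran the other way. Males were lower than females for 27 of 41 members and higher for 2, where 20.4% of all genes were called (12.4% higher, 8.06% lower). No overlap between groups was seen for 11 (19.4% of all genes), and the median was -0.66 against 0.07. Lower in males were 8 of 9 licensing genes, among them Cdc6 (at least 2.89-fold, adjusted p = 0.00316, where its second probe gave a smaller difference of -1.12) and Mcm2 (-1.48 ± 0.28, adjusted p = 0.00126). Chaf1a (-1.98 ± 0.36, adjusted p = 0.00108) and Uhrf1 (-1.93 ± 0.42, adjusted p = 0.00369) were lower without overlap. For Uhrf1 the groups all but touched, since male replicate 3 differed from female replicate 3 by only -0.0076. Pcna, with a spread of only 0.18 to 0.25 (SD) in these groups, was lower, at -0.43 ± 0.11 (adjusted p = 0.0104). Mcm10 (1.04 ± 0.36, adjusted p = 0.0477) and Tk1 (0.64 ± 0.21, adjusted p = 0.0352) were higher in males.

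These calls changed in number with single females. Without replicate 2 of the treated dKO females 15 members were called, without replicates 2 and 4 the count was 2, and a fit of only these 2 groups called 1. Within slides the median was 0.09 against female replicate 3 and -0.65 against female replicate 1. At array position 4, with 2 males and 4 females, it was -0.73. Chaf1a and Mcm2 kept their call in every alternative but array position and the fit of only these groups. Hepatocyte markers were higher in males for 3 of 9 genes (sums of 1280 to 1630 against 619 to 1376) and endothelial markers for 2 of 8 (16.8 to 22.8 against 13.6 to 17.6), and their part was not tested.

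Before treatment the genotypes differed at few members, with a share called near that over all genes. In untreated females 1 of 41 was higher and 3 were lower in dKO, where 9.82% of all genes were called (5.2% higher, 4.62% lower). Group ranges stood apart for 7 (22.7% of all genes), and the median was 0.07 against -0.04. E2f8, a repressor of the E2F programme that acts in polyploid hepatocytes, was at -2.05, -1.77, -2.63 and -2.14 in WT and -4.87, -4.04, -4.03 and -4.24 in dKO females. Every dKO array lay below every WT array (-2.15 ± 0.36, adjusted p = 0.000489), and this call held in every alternative that tested the gene. E2f8, above background on 21 arrays, was not tested with the filter on all 24 arrays. Chaf1b was at -0.31, -0.26, -0.42 and -0.54 in WT and -1.22, -1.08, -1.44 and -1.15 in dKO females, without overlap (-0.84 ± 0.23, adjusted p = 0.0273). Pcna was at 2.80, 3.06, 3.04 and 2.98 in WT and 3.42, 3.27, 3.34 and 3.26 in dKO (0.35 ± 0.11, adjusted p = 0.0493). Ccne2 was above background on 2 of 4 WT arrays and no dKO array, and was at least 1.23-fold lower in dKO (adjusted p = 0.0384). The count was 1 to 3 when single arrays were left out, falling to 1 without WT replicate 1 or dKO replicate 1, 3 or 4, and to 2 without WT replicate 2 or 4. It was 1 with normexp background or array position as a covariate, and 2 without the filter on dim probes. It was also 2 with a filter on all 24 arrays, where E2f8 and Ccne2 were not tested. The MCM genes ranged from -0.03 (Mcm6) to 0.54 (Mcm5) here, none of them called. Mcm10 was lower on every dKO array without a call (-0.97 ± 0.36, adjusted p = 0.0948). Cell-type markers differed beside them. Bile duct markers were higher in dKO for 6 of 8 genes (sums of 16.7 to 26.0 against 8.12 to 9.29 in WT), stellate cell and fibroblast markers for 3 of 9 (83.0 to 115 against 62.6 to 73.7), macrophage markers for 2 of 8 (93.6 to 138 against 33.5 to 67.8) and T and NK cell markers for 2 of 8 (1.12 to 1.16 against 0.639 to 0.760), all without overlap of the sums. The hepatocyte sum was 1391 to 1537 in dKO and 1407 to 1909 in WT, with 1 of 9 genes lower. Their part in the member differences was not tested.

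Treatment with DEN and TCPOBOP was compared within each genotype of females. In WT females 9 of 41 members were lower and 3 higher after treatment, where 17.2% of all genes were called (8.49% higher, 8.73% lower). The groups did not overlap for 12 (25.6% of all genes), and the median was -0.25 against -0.06. E2f8 was at -2.05, -1.77, -2.63 and -2.14 in untreated and -4.61, -4.34, -4.59 and -4.09 in treated WT females, the largest fall of the list (-2.26 ± 0.36, adjusted p = 0.000297). Mcm6 was at 1.16, 2.41, 2.14 and 2.06 before and 0.77, -0.0085, 0.52 and 0.44 after treatment (-1.51 ± 0.40, adjusted p = 0.0135). Brca1 was at -1.62, -0.75, -1.16 and -0.99 and -2.54, -2.47, -1.89 and -2.23 (-1.15 ± 0.26, adjusted p = 0.00551). In all 3 the treated arrays lay below the untreated ones. Gins1 (-0.43 ± 0.10), Tyms (-0.49 ± 0.10), Rrm1 (-0.49 ± 0.15), Mcm4 (-0.56 ± 0.18) and Rpa2 (-0.35 ± 0.12) fell by less, with a largest adjusted p of 0.0459. Ccne2 was lower, at -1.39 ± 0.38 (adjusted p = 0.0157), above background on 2 untreated and 1 treated array, and turned to 0.17 with normexp background.

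The 3 that rose in WT females were E2f2, Chaf1b and Prim2. E2f2 was at -1.28, -0.66, -2.05 and -1.04 before and -0.18, -0.67, 0.59 and -0.24 after treatment (1.13 ± 0.29, adjusted p = 0.0104), with 1 untreated array at the lower edge of the treated ones. Chaf1b was at -0.31, -0.26, -0.42 and -0.54 and 0.61, 0.56, 0.13 and 0.38 (0.81 ± 0.23, adjusted p = 0.0226), without overlap. Prim2 differed by 0.47 ± 0.14, adjusted p = 0.0222. All 3 also rose in dKO females, by 1.07 ± 0.29, 1.34 ± 0.23 and 0.50 ± 0.14 (adjusted p = 0.00636, 0.000308 and 0.00733). The count for WT females was 7 without treated replicate 1 and 6 with array position as a covariate, and the member median within slides was 0.04, -0.20 and -0.55. Gins1 and Tyms kept their call in every alternative. Immune cell markers were higher after treatment of WT females: macrophage markers for 4 of 8 genes (sums of 112 to 243 against 33.5 to 67.8), B and plasma cell markers for 5 of 6 tested (7.85 to 12.6 against 2.58 to 2.86), T and NK cell markers for 2 of 8 (0.839 to 2.14 against 0.639 to 0.760) and neutrophil markers for 2 of 6 tested (4.90 to 20.5 against 0.591 to 2.09). Bile duct markers were higher for 2 of 8 (9.56 to 22.6 against 8.12 to 9.29). The part of these in the member differences was not tested.

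In dKO females 21 of 41 members were higher and 3 lower after treatment, where 37.9% of all genes were called (16.4% higher, 21.4% lower). No overlap between groups was seen for 16 (31.4% of all genes), and the median was 0.55 against -0.07. Rrm2 was at -3.92, -4.42, -3.37 and -3.91 in untreated and -1.75, 0.97, -2.63 and -0.12 in treated dKO females (3.02 ± 0.50, adjusted p = 0.000201). Uhrf1 was at -3.01, -2.71, -2.62 and -2.91 and -0.76, 0.60, -1.98 and -0.26 (2.21 ± 0.42, adjusted p = 0.000565), Lig1 at 1.02, 1.0, 1.09 and 1.08 and 1.85, 2.49, 1.39 and 2.11 (0.91 ± 0.17, adjusted p = 0.000433) and Prim1 at -0.53, -0.18, -0.32 and -0.39 and 0.82, 1.27, 0.27 and 0.84 (1.16 ± 0.21, adjusted p = 0.000388). Every treated array lay above every untreated one for these 4 genes. Cdc6, not above background on any untreated dKO array, was at least 2.53-fold higher (adjusted p = 0.00146). Of the MCM genes Mcm2 (0.89 ± 0.28) and Mcm7 (0.45 ± 0.14) rose, with adjusted p of 0.0160 and 0.0147. Mcm6, at 0.92 ± 0.40 (adjusted p = 0.0735), was not called, and replicate 3 lay just below the lowest untreated array. All 4 chromatin members rose, Dnmt1 the least (0.55 ± 0.18, adjusted p = 0.0208).

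Mcm10, Tk1 and Gins1 were lower after treatment in dKO females. Mcm10 was at 3.81, 3.34, 3.45 and 3.47 before and 1.95, 0.80, 3.28 and 2.07 after treatment (-1.49 ± 0.36, adjusted p = 0.00334), and Tk1 at 2.45, 3.23, 2.76 and 2.71 and 1.99, 1.49, 2.28 and 1.73 (-0.91 ± 0.21, adjusted p = 0.00216). Neither pair of groups overlapped. Gins1 fell in both genotypes, with differences of -0.43 ± 0.10 in WT and -0.41 ± 0.10 in dKO, with a genotype by treatment term of 0.02 ± 0.14. Without replicates 2 and 4 of the treated dKO females 6 members were called, a fit of only these 2 groups called 12, and array position as a covariate left 8. The median was 1.0 without treated dKO replicate 3. On the 3 slides that held both groups, with treated replicates 2, 4 and 1, it was 1.41, 0.45 and 0.53. Chaf1b, Gins1, Lig1, Prim1, Rrm2 and Uhrf1 kept their call in every alternative that tested the gene. Rrm2 was not tested with the filter that asks for signal above background on every array. Hepatocyte markers were lower after treatment of dKO females for 6 of 9 genes (sums of 619 to 1376 against 1391 to 1537), and bile duct markers higher for 4 of 8 (76.1 to 251 against 16.7 to 26.0). Stellate cell and fibroblast markers were higher for 6 of 9 and lower for 1 (118 to 195 against 83.0 to 115), macrophage markers higher for 2 of 8 (141 to 291 against 93.6 to 138), and erythroid markers lower for 4 of 6 tested (79.4 to 93.0 against 94.0 to 175). Endothelial markers were higher for 1 of 8 and lower for 3 (13.6 to 17.6 against 22.0 to 28.0). The part of these in the member differences was not tested.

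**Figure D5:**
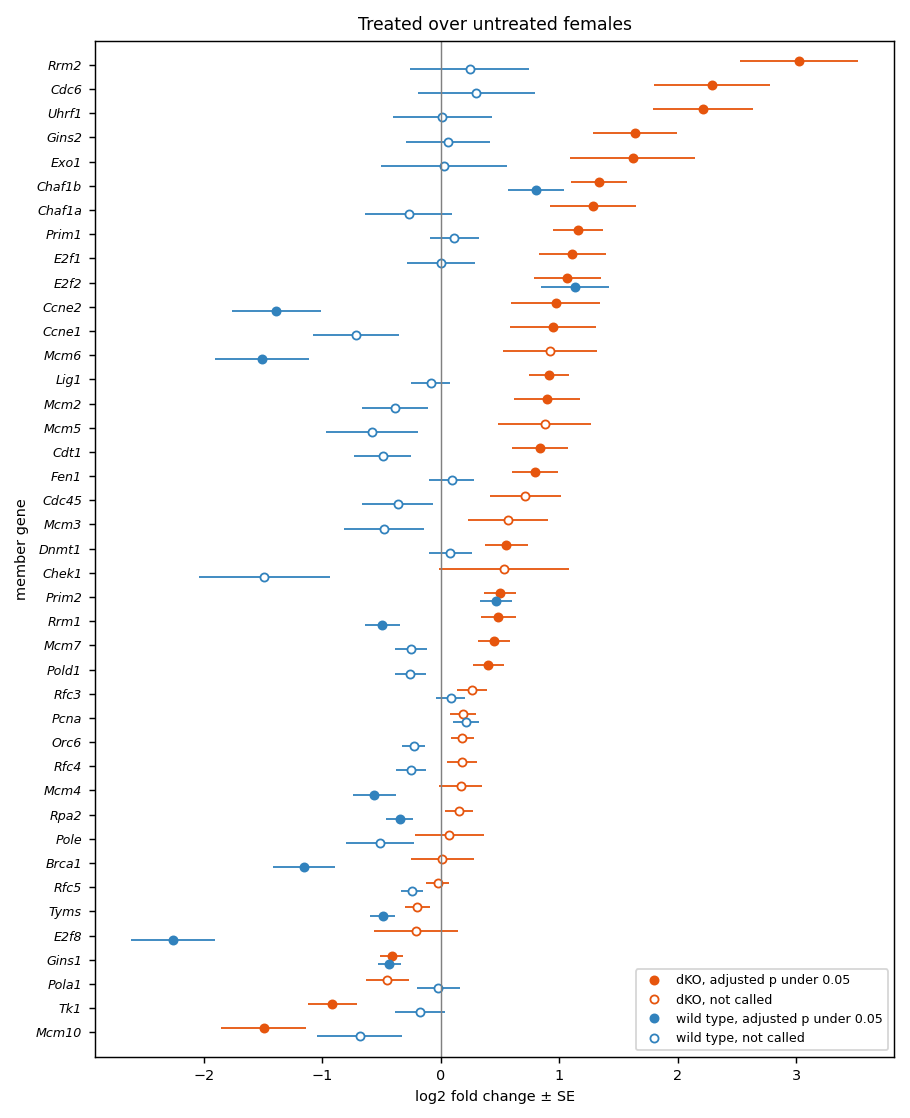
Log2 fold change of treated over untreated females with its SE for each of 41 members, in dKO and in WT (filled points, adjusted p under 0.05; open points, not called). Rrm2 is at 3.02 in dKO and 0.24 in WT, E2f8 is at -2.26 in WT and -0.21 in dKO, and Gins1 is at -0.41 in dKO and -0.43 in WT.

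The genotype by treatment term, the treatment effect in dKO minus that in WT females, was called for 11 of 41 members, all positive, where 5.19% of all genes were called (2.52% higher, 2.67% lower). The median was 0.98 against -0.02. The members were Ccne2 and 10 others, Rrm2 (2.78 ± 0.71), Mcm6 (2.43 ± 0.56), Uhrf1 (2.20 ± 0.59), E2f8 (2.05 ± 0.50), Cdt1 (1.33 ± 0.34), Prim1 (1.05 ± 0.29), Lig1 (1.0 ± 0.24), Rrm1 (0.98 ± 0.21), Mcm7 (0.70 ± 0.19) and Pold1 (0.66 ± 0.19), with adjusted p from 0.0110 to 0.0457. E2f8 fell in WT females, and treated females of both genotypes and untreated dKO females had like levels of -4.41 ± 0.24, -4.50 ± 0.07 and -4.29 ± 0.39 (SD). Ccne2 was not above background on any untreated dKO array, so its term has no measured size, and it turned to -0.094 with normexp background. The count was 4 without treated dKO replicate 4 and 28 without treated dKO replicate 3. It was 1 without replicates 2 and 4, 6 with normexp background, 4 in a fit of only these 4 groups and 0 with array position as a covariate. It was also 5 to 7 without untreated WT replicate 2, 3 or 4, untreated dKO replicate 1 or 4, treated WT replicate 1, 2 or 4 or treated dKO replicate 2.

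The other lists are read against all genes, of which 13.6% were higher and 16.3% lower in treated dKO females, and 14.5% and 10.8% in treated dKO males. Of 46 tested genes of that list, which holds the other polymerase, RFC, RPA and ORC subunits, 14 were higher and 3 lower in dKO than in WT treated females, with a median of 0.10, and 6 were higher and 7 lower in treated males (13.0% and 15.2%, near the shares over all genes; median -0.01). Top2a, the topoisomerase of S and M phase (2.39 ± 0.54, adjusted p = 0.00271, above background on 2 of 4 WT arrays), Asf1b, a histone chaperone (1.91 ± 0.35, adjusted p = 0.000479), and Hells, a chromatin remodeller (1.43 ± 0.31, adjusted p = 0.00190), led the higher ones in females. Of 20 nucleotide synthesis genes 3 were higher (Ctps at 1.53 ± 0.39, adjusted p = 0.00620) and 5 lower (Shmt2 at -0.80 ± 0.18, adjusted p = 0.00314) in treated females, which for so short a list is near the shares over all genes. In males 1 was higher and 3 were lower, Umps among them at -0.74 ± 0.09, adjusted p = 7.82e-06.

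Regulators of the G1 to S passage were called as follows. Of 28 tested, 11 were higher and 3 lower in dKO treated females. In dKO treated males 3 were higher and 5 lower (10.7% and 17.9%, beside 14.5% and 10.8% of all genes). Ccna2, cyclin A2, differed by 2.16 ± 0.42, adjusted p = 0.000899 in females and by -1.65 ± 0.42, adjusted p = 0.00657 in males. Foxm1, a forkhead activator of late cell-cycle genes, differed by 1.95 ± 0.41, adjusted p = 0.00170 and -2.27 ± 0.41, adjusted p = 0.000387. Ccnd1, cyclin D1, was higher in dKO females (1.09 ± 0.32, adjusted p = 0.0150) and at -0.11 ± 0.32 in males (adjusted p = 0.841). Among 10 CDK inhibitors and brakes, Cdkn1a (2.21 ± 0.66, adjusted p = 0.0170) and Cdkn2b (2.17 ± 0.37, adjusted p = 0.000247) were higher in treated dKO females and Cdkn1c (-1.0 ± 0.18, adjusted p = 0.000523) lower, with 3 higher and 2 lower in all. Of 22 genes of fork repair 10 were higher and 1 lower in females, led by Rad51ap1 (2.38 ± 0.52, adjusted p = 0.00229, above background on 1 of 4 WT arrays) and Fanci (2.35 ± 0.39, adjusted p = 0.000214, on 2 of 4). In males 2 of the fork repair genes were higher and 4 lower (9.09% and 18.2%, beside 14.5% and 10.8% of all genes).

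Mitosis genes act after replication. In treated females 33 of 37 were higher and 0 lower in dKO (median 1.87), and in treated males 0 were higher and 24 lower (median -1.54). Treated WT males were above WT females for 28 of 37 (median 1.94; 3.29% of all genes), where 8 of 41 replication genes were. No difference between the 2 lists was tested. Untreated females had 0 of 37 mitosis genes called by genotype (median -0.01; 9.82% of all genes called). After treatment of WT females 2 of 37 were lower and 0 higher (median 0.27), beside 9 lower and 3 higher among the replication genes. Over all genes 8.73% were lower and 8.49% higher in that comparison. Mki67, the proliferation marker, was at 1.89 ± 0.40 in females (adjusted p = 0.00169) and -1.22 ± 0.40 in males (adjusted p = 0.0300), dKO minus WT.

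The authors' deposited table gives a signed fold change for each probe and comparison. Its sign matched that of the fit for 273 of 287 member values, and for all 124 that were called.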

How the data were processed

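RNA of 24 mouse liver samples was amplified, labelled with Cy3 and read on Agilent arrays, per the labels' protocols. Per the file headers, the deposited processed, mean and background signals are intensities from Feature Extraction 10.5.1.1 (the submitters' processing notes name 9.53), with probe positions on mm9. The fold changes in the authors' deposited table have no stated normalization or test. From the 43379 non-control spots of each array, outlier spots (72 to 127) were left out, spots of a probe were averaged, and log2 signals were centred on the 75th percentile of each array (435 to 960). Of 41174 probes, 28048 were kept, each with signal well above background on 4 or more arrays, and the brightest stood for its gene (19037 genes).

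Group means of 24 arrays were fitted in R 4.3.3 with limma 3.58.1 and tested at a Benjamini-Hochberg adjusted p under 0.05 over all genes. A gene not above background on any array of a group has only a bound ("at least"): the bright group's mean minus the dim group's mean of, per array, the lowest signal well above background or the probe's own if higher. The fit was run on simulated data that gave each gene the same spread in all groups. Such data do not cover the wider spread of treated dKO females. Named were the called members with the largest changes per role, those called against most, those not called where most were, and up to 4 genes of each other list. Members, roles and lists were chosen with earlier results of these data known. Marker lists of 9 cell types were counted in each comparison, and those with 2 or more genes called in a direction are given beside it. In treated dKO females 6 of them (endothelial, erythroid, neutrophil, B and plasma, T and NK, and macrophage) had 0, 0, 1, 0, 0 and 2 genes higher and 4, 1, 1, 1, 0 and 0 lower than in treated WT females.

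Alternatives were array median centring, quantile normalization, normexp background (offset 50), no filter or a filter on all 24 arrays, the mean of probes, trend and robust moderation, array position as a covariate, slide as a fixed or random block, replicate number as a block, only the groups compared, outlier spots kept, and each array left out. Replicate numbers did not pair samples: over 60 same-numbered pairs the deviations from group means correlated at -0.02 on average, over 0.1 in 10. Over 36 pairs of arrays on the same slide these deviations correlated at 0.14 on average, over 0.1 in 23, and the main fit has no term for slide. Promoters were scanned in Python 3.11.15 with pandas 2.3.3, and figures drawn with matplotlib 3.10.9.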

Additional observations from a re-analysis of the deposited data

Results flagged for a closer look

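In 8 of 252 sets of 4 arrays 1 array stood far from the other 3, where about 1 in 20 would be by chance. They were Mcm2 on untreated dKO female replicate 2 (-0.64), Cdc6 on replicate 4 (-6.79) and E2f1 on replicate 3 (-2.64) of the same group, and Rpa2 on untreated WT female replicate 3 (-0.085). In treated WT females they were Pcna on replicate 1 (3.34), Tyms on replicate 3 (1.49) and Rfc5 on replicate 4 (0.95), and in treated WT males Gins1 on replicate 2 (-0.34).

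The genotype effect differed between treated males and treated females, by the interaction term of the limma fit, for 26 members. In licensing and helicase genes the terms, males minus females, were -2.50 (Mcm2), -0.94 (Mcm4), -2.67 (Mcm5), -3.32 (Mcm6), -0.89 (Mcm7), -3.73 (Cdc6, as fitted, with dKO males not above background), -1.14 (Cdt1), -1.89 (Cdc45), -0.60 (Gins1) and -3.18 (Gins2). At the fork they were -1.91 (Pole), -1.09 (Prim1), -1.0 (Rfc4), -1.01 (Fen1) and -1.32 (Lig1). In nucleotide supply they were -0.90 (Rrm1), -3.70 (Rrm2), -0.62 (Tyms) and 1.43 (Tk1). In the remaining roles they were -2.05 (E2f1), -1.30 (E2f2), -3.02 (Chaf1a), -3.29 (Uhrf1), -1.50 (Brca1), -2.99 (Exo1) and -2.60 (Chek1, as fitted, with treated WT females not above background).

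The treatment effect differed between dKO and WT females for 11 members, by the genotype by treatment term. The terms were 2.43 (Mcm6), 0.70 (Mcm7), 1.33 (Cdt1), 0.66 (Pold1), 1.05 (Prim1), 1.0 (Lig1), 0.98 (Rrm1), 2.78 (Rrm2), 2.36 (Ccne2, as fitted, with untreated dKO females not above background), 2.05 (E2f8) and 2.20 (Uhrf1).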

How the results depend on the processing

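Counts are members called of 41, or of 34 with the filter on all 24 arrays, and medians are log2. With normexp background the counts were 1 (genotype, untreated females), 1 (sex, WT) and 6 (genotype by treatment), and the medians 0.52 (genotype, treated females), 0.20 (sex, WT) and 0.47 (genotype by treatment). It reversed Cdc45 (-0.23), Ccne2 (-0.56) and Chek1 (-0.13) for genotype in treated females, Cdc45 (-0.00377) for sex in WT, and Ccne2 for treatment in WT females (0.17) and genotype by treatment (-0.094). The mean of probes reversed Tyms for genotype in males (0.19), sex in dKO (0.47) and sex by genotype (0.16). With no filter the counts were 2 (untreated) and 7 (genotype by treatment). With the filter on all 24 arrays they were 2 (untreated), and the median for sex in WT was 0.24. Array median centring moved the male genotype median to -0.41. Array position as a covariate gave 1 (untreated), 0 (genotype, treated females), 0 (genotype, males), 5 (sex, WT), 6 (treatment, WT), 8 (treatment, dKO) and 0 (genotype by treatment). Fits of only the groups compared gave 12 (genotype, treated females), 15 (sex, WT), 1 (sex, dKO), 12 (treatment, dKO) and 4 (genotype by treatment). Without treated dKO female replicates 2 and 4 the counts were 18 (genotype), 2 (sex), 6 (treatment), 16 (sex by genotype) and 1 (genotype by treatment), and the medians 0.50, -0.68 (sex by genotype) and 0.45 (genotype by treatment).

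Leaving out 1 array at a time, the counts ranged from 1 to 3 and the medians from -0.05 to 0.15 (genotype, untreated females), 25 to 34 and 0.66 to 1.14 (genotype, treated females), 10 to 13 and -0.40 to -0.25 (genotype, males), 3 to 9 and 0.33 to 0.42 (sex, WT) and 15 to 33 and -0.88 to -0.46 (sex, dKO). They ranged from 7 to 11 and -0.34 to -0.21 (treatment, WT), 17 to 31 and 0.38 to 1.0 (treatment, dKO), 23 to 34 and -1.27 to -0.91 (sex by genotype) and 4 to 28 and 0.70 to 1.12 (genotype by treatment). Of 161 single-gene calls 102 were kept whichever array was left out.

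With the replicate block, which rests on numbers that the check did not show to pair samples, the counts were 3 (genotype, untreated females), 33 (genotype, treated females), 12 (genotype, males), 8 (sex, WT), 28 (sex, dKO), 11 (treatment, WT), 23 (treatment, dKO), 25 (sex by genotype) and 9 (genotype by treatment), and 10 of 161 single-gene calls were lost. Slide as a fixed block lost 17. Dim members are limited by background: 7 members were above it on fewer than 24 arrays.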
